A study of Rattus norvegicus with 36 samples.

Results

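The genes described here belong by name to families that build and move motile cilia or the tails of sperm. Not all of them are particular to airway cilia. They were chosen by name: every probe on the array, controls left out, whose gene name was Foxj1 or followed the series Dnah, Dnai, Rsph, Tekt or Cfap with a number. This gave 55 of the 25597 gene names on the array, carried by 91 probes. They comprised the transcription factor gene Foxj1, 11 dynein heavy chain genes, 2 dynein intermediate chain genes, 7 radial spoke genes, 5 tektin genes and 29 genes named as cilia and flagella associated proteins (Cfap). All 55 names were found in the RefSeq gene table of the rat.

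The rats were female Sprague Dawley animals, 13 weeks old when a single suspension was placed in the trachea. The exposed group (High) received 10 mg per rat of DQ-12, a ground crystalline silica dust, in saline, and the vehicle group (Control) received saline alone. Both were examined 1, 30 or 180 days later (D1, D30 and D180), with 6 rats in each of the 6 groups, and all rats went through the same anesthesia and instillation. The accessory lobe of the right lung was the tissue, and RNA of each rat went on a separate single-color Agilent array, 36 in all. Such a lobe holds airway, alveolar, vascular and immune cells together, so fewer ciliated cells and less RNA per ciliated cell cannot be told apart.

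Motile cilia are the beating hairs on multiciliated cells of the airway surface, where they carry mucus and trapped particles out of the lung. Each cilium is an axoneme, a ring of microtubule doublets around a central pair. Outer and inner dynein arms slide the doublets, radial spokes pass signals from the central pair to the arms, and tektins and many Cfap proteins lie inside or along the doublets. FOXJ1 switches on this set of genes, together with factors of the RFX family, which bind a DNA element called the X-box.

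The values are log2 signals after quantile normalization, in which 1 unit is a 2-fold difference, and a change is DQ-12 minus vehicle. A gene is said to have risen or fallen if the limma test across all 23940 genes measured gave an adjusted p under 0.05 for that time point. A DEG, by the threshold of the study, also changed at least 2-fold. All 55 genes passed the filter on dim probes, and 48 of them were well above background on all 36 arrays. Dnah17 was well above background on 6 arrays and Cfap74 on 4, so their changes rest on dim signals. Between 51.4 and 75.5% of probes were well above background on an array, replicate arrays correlated with a median r of 0.973 to 0.981 by group, and no spot was saturated. The tissue carried the markers it should: all 10 alveolar type 2 genes and all 17 further ciliated cell genes tested were well above background on every array.

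Arrays were spread over 19 slides and 11 scan dates, and these were not balanced between the groups. At D1, a single scan date held all 6 DQ-12 arrays and 1 vehicle array. At D30, both dates held both groups. At D180, 2 of 6 dates held both groups, with 4 vehicle and 4 DQ-12 arrays between them. Of the slides, 1 of 5 held both groups at D1, with 1 vehicle and 4 DQ-12 arrays. At D30, 3 of 4 slides did, with 4 vehicle and 6 DQ-12 arrays. At D180, 1 of 10 slides did, with 1 array of each group. Slide as a fixed block thus rests on 1 vehicle array at D1 and on 1 array of each group at D180. A call lost in these 2 fits cannot be read as an effect of slide.

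Promoters are shown first, since the X-box is the element these genes are known for. RefSeq promoters (GRCr8, 300 bases: 250 before and 50 after the start) were given for 45 of the 55 genes. The letters GTTGCC, a part of the X-box, were found on either strand in 16 of these 45 windows (35.6%) and in 12.2% of all 33469 windows of the same length. A pair of sites, GTNNCC followed after 0 to 3 bases by GGNNAC, was found in 6 of them (13.3%) against 3.85% of all windows. It can overlap GTTGCC, which fits its first site. The forkhead letters TGTTTAC were found in 2 (4.44%) against 3.78%. Of the 20 genes that rose or fell at a time point, 16 had a promoter, and 8 of these held GTTGCC or the pair, as did 11 of the other 29. A match is a run of letters and not evidence of binding. Of the genes that rose or fell, 6 with a match wholly within the last 70 bases before the start are printed 5′ to 3′, with the match in capitals (GGCAAC is GTTGCC on the other strand).
Cfap161, chr1:147177822-147177891, minus strand: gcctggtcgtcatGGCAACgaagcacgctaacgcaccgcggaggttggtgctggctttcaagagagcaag
Cfap206, chr5:54095384-54095453, minus strand: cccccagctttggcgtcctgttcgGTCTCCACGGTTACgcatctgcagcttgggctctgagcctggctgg
Cfap44, chr11:69789906-69789975, minus strand: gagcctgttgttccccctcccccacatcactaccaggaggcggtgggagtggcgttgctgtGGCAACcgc
Dnah12, chr16:1944682-1944751, plus strand: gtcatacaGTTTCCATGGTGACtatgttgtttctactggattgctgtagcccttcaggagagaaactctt
Tekt1, chr10:57479122-57479191, minus strand: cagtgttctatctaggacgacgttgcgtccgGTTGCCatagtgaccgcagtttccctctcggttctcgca
Tekt2, chr5:143907725-143907794, minus strand: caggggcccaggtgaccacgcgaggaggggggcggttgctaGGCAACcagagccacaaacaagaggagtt
These genes did not all move the same way after DQ-12. Cfap206, Cfap44, Cfap161 and Dnah12 fell at D1, Cfap161 and Tekt1 fell at D30, and Tekt2 rose at D30 and D180.

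At D1 some of the motile cilia genes fell, by 1.25 to 2.07-fold, and none rose. At D1, 15 of the 55 genes (27.3%) fell and 0 rose, beside 8.62% of all genes that fell and 7.58% that rose. The 15 were Cfap43, Cfap44, Cfap52, Cfap57, Cfap69, Cfap70, Cfap73, Cfap100, Cfap161, Cfap206, Dnah9, Dnah11, Dnah12, Rsph4a and Rsph10b. Only Cfap73 was a DEG, against 1.05% of all genes that fell at least 2-fold. The median change of the 55 genes was -0.18, beside -0.0095 over all genes, and 47 of them (85.5%) had a value below 0, beside 50.9% of all genes, and 8 had a value above 0, beside 49.1%. Without adjustment, 22 had a p under 0.05 and a lower value, against 15.3% of all genes, and 1 had a higher value, against 13.7%.

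At D30, 4 genes fell (Cfap126, Cfap161, Rsph9 and Tekt1), 7.27% of the 55 beside 1.24% of all genes, and 1 rose (Tekt2), 1.82% beside 2.74%. At D180, 1 fell (Tekt5), 1.82% beside 9.0% of all genes, and 1 rose (Tekt2), 1.82% beside 7.82%. The share that fell at D180 was thus below the background. None of the 55 genes was a DEG at D30 or D180, where 0.138 and 0.773% of all genes were DEGs that fell and 0.915 and 2.86% were DEGs that rose. Over the 55 genes the change had a median of -0.20 at D30 (all genes, -0.015) and of -0.15 at D180 (all genes, -0.032). At both time points 45 of the 55 (81.8%) were below 0, beside 52.7 and 53.8% of all genes, and 10 were above 0, beside 47.3 and 46.2%. Without adjustment, 19 were lower and 2 higher with a p under 0.05 at D30, beside 7.91 and 7.87% of all genes, and 10 were lower and 3 higher at D180, beside 15.5 and 12.3%. Signs over the genes are a description, since genes of the same cell type share their rats.

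**Figure D1:**
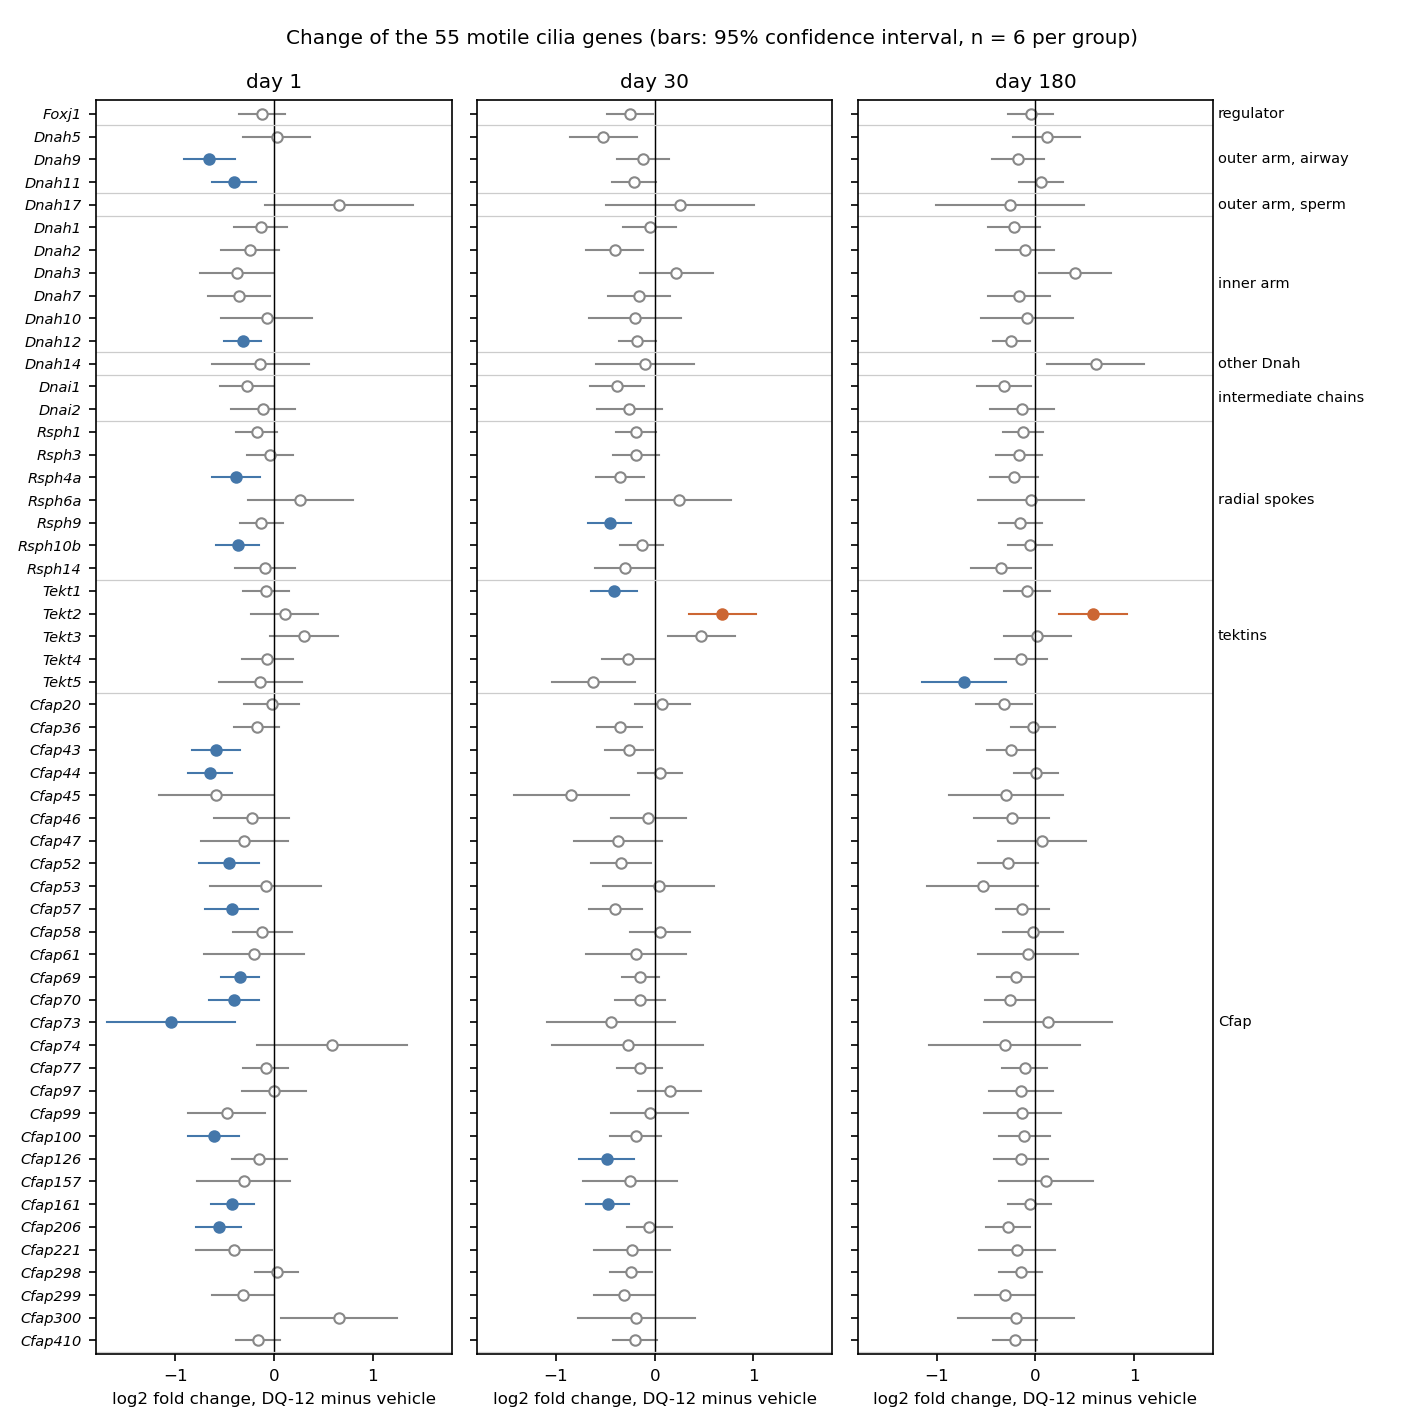
Log2 fold change (DQ-12 minus vehicle, horizontal axis) of each of the 55 motile cilia genes, grouped by role, at D1, D30 and D180. Points are model estimates and bars their 95% confidence intervals, with 6 rats per group, filled blue points fell and filled orange points rose (limma, adjusted p under 0.05), and open gray points did not pass. Most points lie left of 0 at every time point, 15 are filled blue at D1, and Tekt2 is the orange point at D30 and D180.

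Foxj1 encodes the master regulator of the motile cilia program. In vehicle rats its log2 signal ranged from 11.27 to 11.59 at D1 (median 11.40), and in DQ-12 rats from 10.99 to 11.60 (median 11.22). The DQ-12 rats thus reached both below and above the vehicle rats. The change was -0.12 ± 0.11 (SE, n = 6 per group; limma, adjusted p = 0.524), with a 95% interval of -0.35 to 0.11. At D30 vehicle rats ranged from 11.30 to 11.63 (median 11.46) and DQ-12 rats from 11.04 to 11.39 (median 11.19), and 5 of 6 DQ-12 rats lay below every vehicle rat. This change, -0.25 ± 0.11, did not pass the adjusted test (limma, adjusted p = 0.253, exact permutation p = 0.0108 for the gene alone). At D180 the groups overlapped, with medians of 11.23 and 11.19 and a change of -0.05 (95% interval -0.28 to 0.18). Foxj1 thus passed the test at none of the 3 time points.

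Outer dynein arms supply most of the force of the beat. DNAH5, DNAH9 and DNAH11 are their heavy chains, the motor subunits, in airway cilia. Dnah9 had log2 signals of 10.12 to 10.64 in vehicle rats at D1 (median 10.31) and of 9.41 to 10.00 in DQ-12 rats (median 9.67). No DQ-12 rat reached the lowest vehicle rat. It fell by 0.65 ± 0.13 (SE), 1.57-fold (limma, adjusted p = 4.76e-04, exact permutation p = 0.00216, the smallest that 6 against 6 can give). At D30 and D180 the Dnah9 groups overlapped, with changes of -0.12 and -0.18 (adjusted p = 0.767 and 0.412).

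Dnah11 ranged from 10.80 to 11.21 in vehicle rats at D1 (median 11.02) and from 10.45 to 10.75 in DQ-12 rats (median 10.62), again without overlap. It fell 1.32-fold (-0.40 ± 0.11, limma, adjusted p = 0.0102). At D30 and D180 its changes were -0.21 and 0.06, with overlapping groups. Dnah5 gave another picture: at D1 its change was 0.03 (95% interval -0.31 to 0.36), and at D30 it was -0.52 ± 0.16 without passing the test (limma, adjusted p = 0.0725), with 4 of 6 DQ-12 rats below every vehicle rat. At D180 it was 0.11. These values rest on the probe used. The other, dimmer probes of Dnah5 were at -0.29, -0.37 and 0.28 at D1. At D30 they were at -0.23, -0.26 and -0.02, and none passed at either time point. Dnah17, the outer arm heavy chain of sperm, had 0 of 6 vehicle and 2 of 6 DQ-12 arrays well above background at D1. Its change of 0.65 (95% interval -0.09 to 1.40) did not pass (limma, adjusted p = 0.242) and was -0.05 with scan date as a fixed block.

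Inner dynein arms shape the bend of the cilium. All 6 inner arm heavy chain genes had values below 0 at D1, from -0.38 to -0.08, and 1 of them fell. Dnah12 ranged from 10.77 to 11.29 in vehicle rats (median 11.16) and from 10.55 to 10.95 in DQ-12 rats (median 10.81), with 2 DQ-12 rats below every vehicle rat. It fell 1.25-fold (-0.32 ± 0.09, limma, adjusted p = 0.0148). At D180 Dnah12 did not overlap between the groups: vehicle rats lay within 10.75 to 10.83 and DQ-12 rats within 10.42 to 10.64. That change, -0.25 ± 0.09, did not pass the adjusted test (limma, adjusted p = 0.0613, exact permutation p = 0.00216).

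Dnah3 also separated at D1, with vehicle rats at 9.51 to 9.86 and DQ-12 rats at 8.99 to 9.5. Its change of -0.38 ± 0.18 did not pass (limma, adjusted p = 0.156), and it turned to 0.22 at D30 and 0.40 at D180, neither of which passed. Dnah10, the inner arm gene with the highest mean signal on this array, ranged from 15.28 to 16.31 in vehicle rats at D1 and from 15.18 to 16.22 in DQ-12 rats. Its groups overlapped at all 3 time points, with changes of -0.08, -0.20 and -0.08 and wide intervals (-0.54 to 0.39 at D1). Dnah14, a heavy chain gene not assigned to an arm here, had a change of -0.14 at D1, -0.10 at D30 and 0.61 ± 0.24 at D180 (limma, adjusted p = 0.0826). At D180 its DQ-12 rats ranged from 6.17 to 7.35 and its vehicle rats from 5.98 to 6.59.

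The intermediate chains DNAI1 and DNAI2 hold the outer arm to its doublet. Neither gene rose or fell at any time point, and both had values below 0 at all 3 without a batch term. With scan date as a fixed block both stayed below 0 at D30 and D180. At D1, where that fit rests on 1 vehicle array, Dnai1 was at 0.05 and Dnai2 at 0.26. Dnai1 was at -0.28, -0.38 and -0.32 at D1, D30 and D180 (limma, adjusted p = 0.160, 0.106 and 0.107). Dnai2 ranged from 7.86 to 8.38 in vehicle rats and from 7.65 to 8.61 in DQ-12 rats at D1, and its changes were -0.12, -0.26 and -0.14.

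Radial spoke genes fell at D1 and D30, but not the same ones. Rsph10b ranged from 11.62 to 11.995 in vehicle rats at D1 (median 11.85) and from 11.27 to 11.67 in DQ-12 rats (median 11.42). With 5 of 6 DQ-12 rats below every vehicle rat, it fell 1.29-fold (-0.37 ± 0.11, limma, adjusted p = 0.0176). Rsph4a, which encodes a spoke head protein, fell 1.30-fold at D1 (-0.38 ± 0.12, adjusted p = 0.0237), again with 5 of 6 DQ-12 rats below every vehicle rat. At D30 the spoke head gene Rsph9 ranged from 10.40 to 10.82 in vehicle rats (median 10.66) and from 9.91 to 10.50 in DQ-12 rats (median 10.18), 5 of 6 DQ-12 rats lying below every vehicle rat, and it fell 1.37-fold (-0.46 ± 0.11, adjusted p = 0.0085). Rsph9 at D1 had a change of -0.13 (adjusted p = 0.456), Rsph10b at D30 of -0.13 (0.638) and Rsph4a at D30 of -0.35 (0.0895). At D180 all 7 radial spoke genes had values below 0 and 0 passed the test. The differences between time points were tested for each gene and did not pass.

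Tektins are filaments inside the doublets, and their genes moved both ways. At D1, 0 of 5 passed, with values from -0.14 to 0.30. At D30 all 5 had an unadjusted p under 0.05, 3 with lower and 2 with higher values, and 2 passed the adjusted test. Tekt2 ranged from 10.23 to 11.36 in vehicle rats (median 10.93) and from 11.42 to 11.78 in DQ-12 rats (median 11.56), so every DQ-12 rat lay above every vehicle rat. It rose 1.61-fold (0.68 ± 0.17, limma, adjusted p = 0.0135, exact permutation p = 0.00216). Without vehicle rat 2, the lowest of its group, the change was 0.55 and missed the threshold (adjusted p = 0.0581).

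At D180 Tekt2 ranged from 10.55 to 11.60 in vehicle rats and from 11.16 to 12.27 in DQ-12 rats, with 4 of 6 DQ-12 rats above every vehicle rat. It rose 1.5-fold (0.59 ± 0.17, limma, adjusted p = 0.0123, exact permutation p = 0.0346). Tekt3 had a value above 0 at D30 as well, 0.47 ± 0.17, which did not pass (adjusted p = 0.117). Tekt1 ranged from 7.38 to 8.17 in vehicle rats at D30 (median 7.64) and from 7.03 to 7.54 in DQ-12 rats (median 7.30), and it fell 1.33-fold (-0.41 ± 0.12, limma, adjusted p = 0.0340). Leaving out any 1 of 6 rats (vehicle rats 1, 4 and 5, DQ-12 rats 1, 2 and 4) ended this call, with adjusted p from 0.0588 to 0.123. With each time point fitted alone, Tekt2 and Tekt1 at D30 had adjusted p of 0.0501 and 0.195.

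Tekt5, known as a tektin of sperm, was the gene that fell at D180. Vehicle rats ranged from 5.22 to 6.36 (median 6.08) and DQ-12 rats from 4.39 to 5.86 (median 5.33), and every vehicle rat except rat 1 lay at 6.02 or above. It fell 1.65-fold (-0.72 ± 0.21, limma, adjusted p = 0.0121, exact permutation p = 0.0216). Without DQ-12 rat 2, the lowest, the change was -0.55 and missed the threshold (adjusted p = 0.0558). With D180 fitted alone, Tekt5 and Tekt2 had adjusted p of 0.0931 and 0.134. At D30 Tekt5 had a change of -0.62 ± 0.21, which did not pass (adjusted p = 0.0857).

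**Figure D2:**
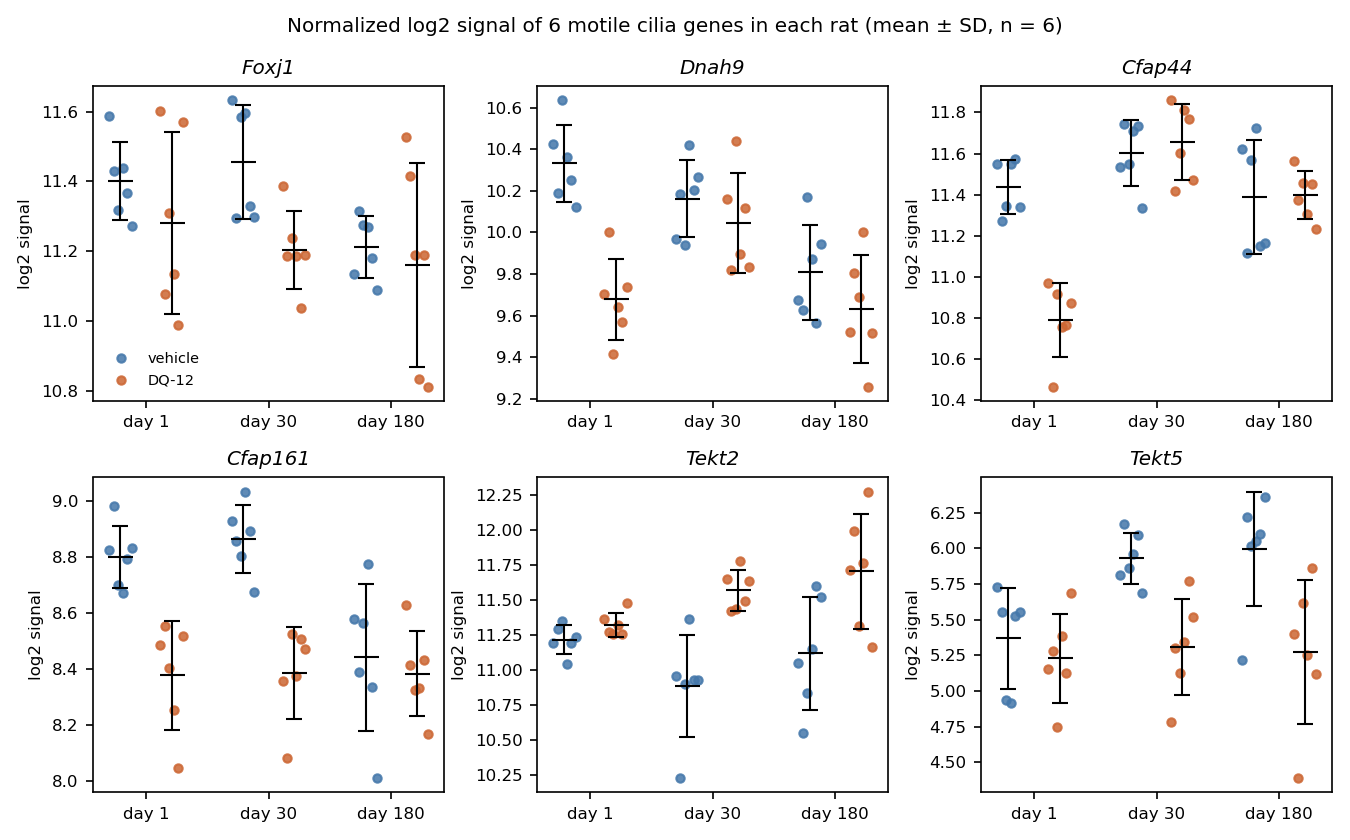
Normalized log2 signal (vertical axis) of Foxj1, Dnah9, Cfap44, Cfap161, Tekt2 and Tekt5 in each rat at D1, D30 and D180. Points are rats (blue, vehicle; orange, DQ-12) and black lines show the mean ± SD of 6 rats. The groups do not overlap for Dnah9, Cfap44 and Cfap161 at D1 and for Cfap161 and Tekt2 at D30, whereas the Foxj1 groups overlap at all 3 time points.

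Of the 29 Cfap genes, 10 fell at D1, beside 8.62% of all genes, and 26 had a value below 0, beside 50.9%, with a median change of -0.31. CFAP43 and CFAP44 tether an inner arm dynein to the doublet, and both genes fell. Cfap44 ranged from 11.27 to 11.57 in vehicle rats (median 11.45) and from 10.46 to 10.97 in DQ-12 rats (median 10.82). It fell 1.57-fold (-0.65 ± 0.11, limma, adjusted p = 8.41e-05), with no overlap. Cfap43 ranged from 8.28 to 8.77 and from 7.74 to 8.06, also without overlap, and fell 1.5-fold (-0.58 ± 0.12, adjusted p = 7.11e-04).

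CFAP100 and CFAP73 belong together in a complex that regulates inner arms, and their genes differed in how firmly they fell. Cfap100 ranged from 12.47 to 13.04 in vehicle rats and from 12.06 to 12.32 in DQ-12 rats at D1, and fell 1.53-fold (-0.61 ± 0.13, limma, adjusted p = 9.31e-04). Cfap73 had the largest change at D1, 2.07-fold lower (-1.05 ± 0.32, adjusted p = 0.0213), but its vehicle rats split: rats 1 and 4 were at 8.45 and 7.88, the other 4 at 5.68 to 6.10, and the DQ-12 rats at 4.78 to 6.14. The exact permutation p for Cfap73 was 0.0606. Without vehicle rat 1 its change was -0.70, without vehicle rat 4 it was -0.81, and without DQ-12 rat 3 it was -0.87, and in each case it no longer passed (adjusted p = 0.0817, 0.0756 and 0.0651).

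CFAP206 sits at the base of a radial spoke. Cfap206 ranged from 9.24 to 9.62 in vehicle rats at D1 (median 9.37) and from 8.51 to 9.01 in DQ-12 rats (median 8.89), and fell 1.47-fold (-0.56 ± 0.11, limma, adjusted p = 5.21e-04). At D180 its change was -0.28 ± 0.11 (adjusted p = 0.0842), and at D30 it was -0.05. Cfap52, which encodes a protein inside the doublet, fell 1.37-fold at D1 (-0.45 ± 0.15, adjusted p = 0.0316), and Cfap57 fell 1.35-fold (-0.43 ± 0.13, adjusted p = 0.022). In both, 5 of 6 DQ-12 rats lay below every vehicle rat. The call of Cfap52 ended without any 1 of 7 rats (vehicle rats 1, 5 and 6, DQ-12 rats 1, 3, 4 and 5, adjusted p from 0.0508 to 0.0842). That of Cfap57 ended without any 1 of 3 (vehicle rat 1, DQ-12 rats 3 and 5, adjusted p from 0.0513 to 0.0568). Cfap69 and Cfap70 fell 1.27-fold and 1.33-fold at D1 (-0.35 and -0.41, adjusted p = 0.00883 and 0.0209).

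Cfap161, whose product also lies inside the doublet, was the gene that fell at 2 time points. At D1 it ranged from 8.67 to 8.98 in vehicle rats (median 8.81) and from 8.05 to 8.55 in DQ-12 rats (median 8.45). At D30 it ranged from 8.67 to 9.03 (median 8.87) and from 8.08 to 8.52 (median 8.42). The groups were apart both times, and it fell 1.34-fold at D1 (-0.42 ± 0.11, limma, adjusted p = 0.00534) and 1.39-fold at D30 (-0.48 ± 0.11, adjusted p = 0.00575). At D180 the vehicle rats spread from 8.01 to 8.77 and took in the DQ-12 rats, with a change of -0.06 (adjusted p = 0.794).

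Cfap126, another doublet protein gene, ranged from 9.48 to 10.26 in vehicle rats at D30 (median 9.88) and from 8.71 to 9.75 in DQ-12 rats (median 9.55), and fell 1.40-fold (-0.48 ± 0.14, limma, adjusted p = 0.0364). Leaving out any 1 of 6 rats (vehicle rats 1, 2, 5 and 6, DQ-12 rats 2 and 4) ended this call, with adjusted p from 0.0586 to 0.126. Cfap43 at D30 separated the groups (8.26 to 8.43 against 7.96 to 8.26, the nearest rats equal after rounding, exact permutation p = 0.00216) with a change of -0.26 that did not pass (adjusted p = 0.274). Cfap45 had the lowest value of all at D30, -0.84 ± 0.28, with 5 of 6 DQ-12 rats below every vehicle rat, and did not pass (adjusted p = 0.0911). With scan date as a fixed block it was at -0.28, and with slide at -0.30. At D180, 25 of 29 Cfap genes had values below 0 and 0 passed. Among dim genes, Cfap300 was at 0.66 and Cfap74 at 0.59 at D1, and neither passed (adjusted p = 0.123 and 0.313).

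The number of genes whose groups did not overlap followed the same order. At D1, 9 of the 55 (16.4%) had all DQ-12 rats below all vehicle rats, beside 6.00% of all genes, and 0 were apart in the other direction, beside 5.26%. These were Cfap43, Cfap44, Cfap69, Cfap100, Cfap161, Cfap206, Dnah3, Dnah9 and Dnah11. At D30, 2 were apart below (3.64% beside 0.552%) and 1 above (1.82% beside 1.82%), and at D180, 1 was apart below (1.82% beside 3.47%).

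Each rat was also described by the mean log2 signal of the 55 genes. At D1 it ranged from 8.51 to 8.75 in vehicle rats (median 8.63) and from 8.23 to 8.57 in DQ-12 rats (median 8.44). At D30 vehicle rats lay within 8.54 to 8.78, with a median of 8.69, and DQ-12 rats within 8.31 to 8.61, with a median of 8.46. For D180, vehicle rats spanned 8.40 to 8.65 (median 8.59) and DQ-12 rats 8.35 to 8.54 (median 8.44). The medians of the DQ-12 rats were thus lower each time, and the ranges overlapped each time. Within groups the genes varied together only loosely. Over the 36 rats, deviations from the group mean had a median pairwise r of 0.13 among the 48 genes measured on all arrays, and 70.4% of the 1128 pairs were above 0. Rsph9 had the highest mean r with the other genes, 0.32, and Dnah10 the lowest, -0.15. Rats share the depth and batch of their arrays, which enters every such r.

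Foxj1 was set against the gene with the highest mean signal in each of the other 8 roles (Dnah11, Dnah17, Dnah10, Dnah14, Dnai2, Rsph10b, Tekt2 and Cfap100). Pearson r over 36 rats ran from -0.27 for Dnah17 to 0.29 for Rsph10b, and Spearman rho from -0.24 to 0.30. None of the 8 relations passed (permutation tests with 100000 resamples within groups, Benjamini-Hochberg adjusted p of 0.407 or more for r and 0.384 or more for rho). These 8 do not cover the spread. Over the 47 other genes measured on all arrays, r with Foxj1 had a median of 0.11. It ran from -0.31 for Cfap45 to 0.62 for Cfap206, and these values were not tested. For Rsph10b the raw p was 0.0563 for r and 0.0806 for rho, r was 0.27 without the 2 rats farthest from the median of Foxj1, and 0.39 within group and scan date.

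**Figure D3:**
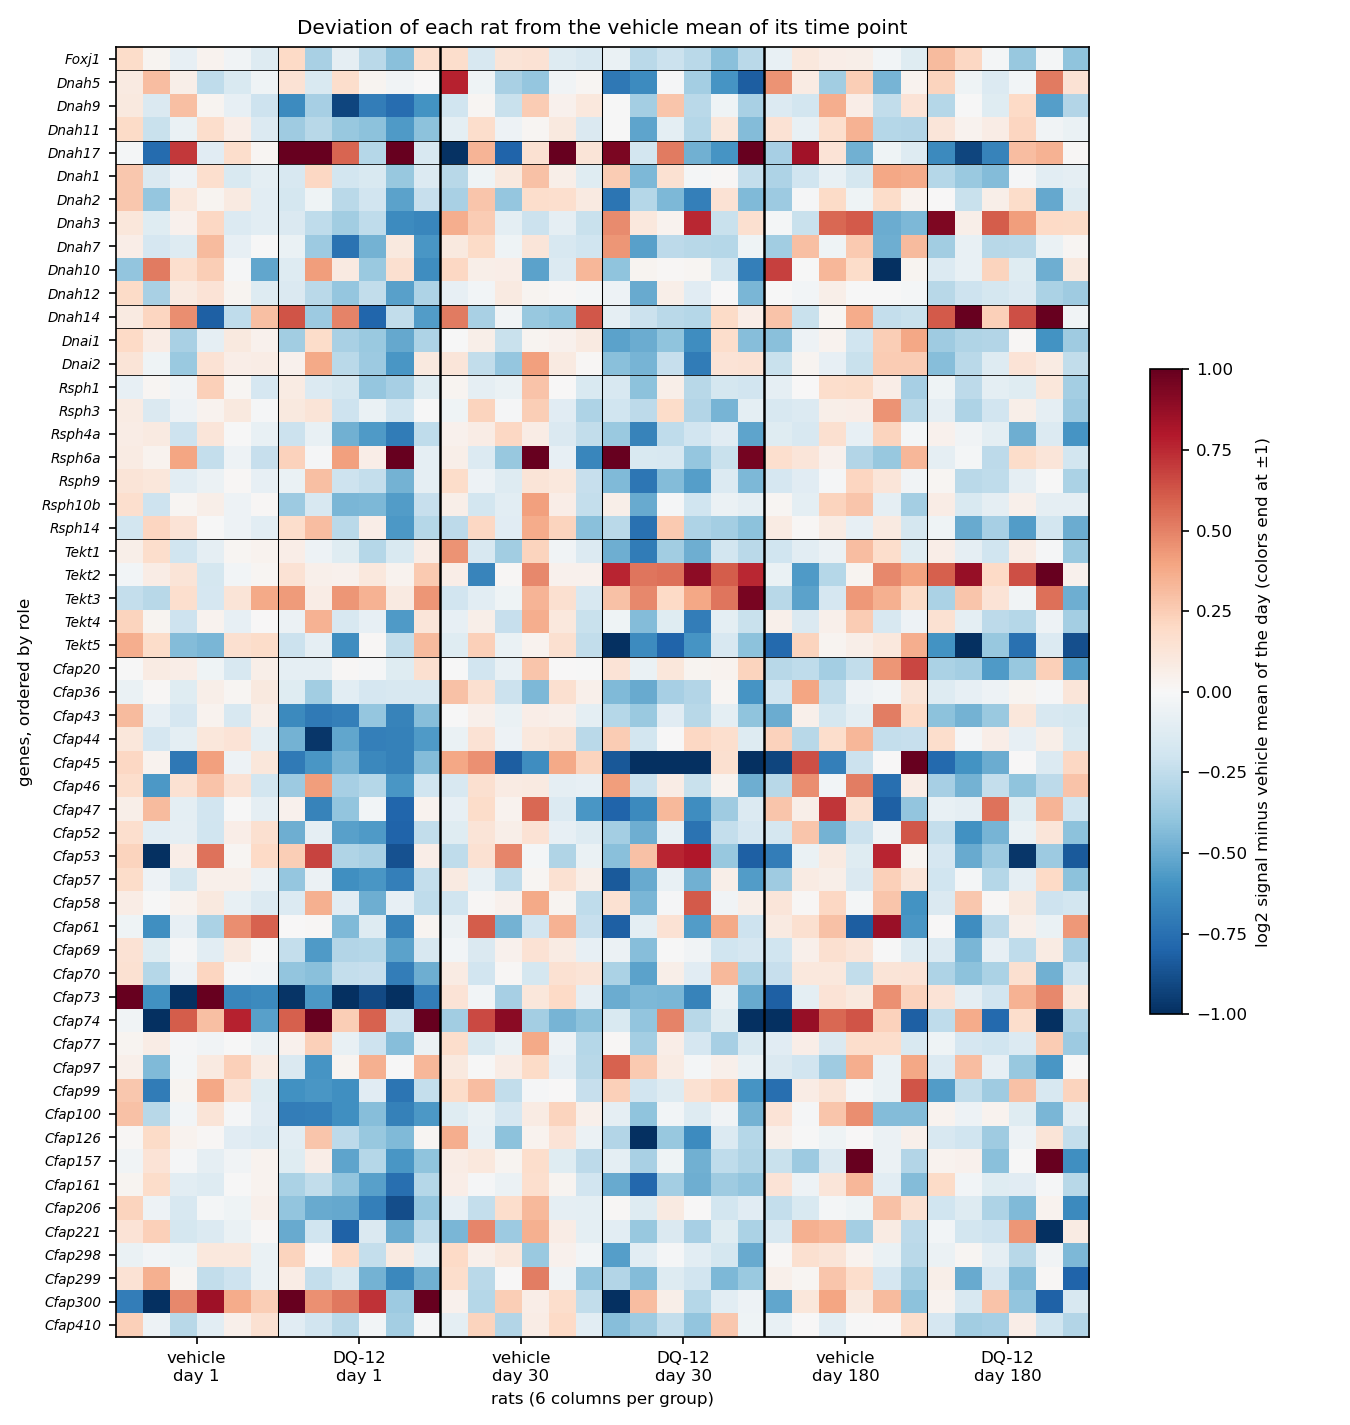
Deviation of each rat (columns, 6 per group) from the vehicle mean of its time point for each of the 55 genes (rows, ordered by role), on the log2 scale with colors that end at ±1. The DQ-12 columns at D1 are mostly blue (lower) in the Cfap rows, with DQ-12 rat 5 the lowest in mean (8.23), and the Tekt2 row is red (higher) in the 6 DQ-12 columns at D30.

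The change of each gene was also compared between time points (interaction contrasts in the same limma fit). Between D1 and D30, 1 of the 55 genes differed, beside 2.18% of all genes. Between D1 and D180, 1 differed, beside 4.55%, and between D30 and D180, 0 differed, beside 0.246% (5 had an unadjusted p under 0.05). The gene was Cfap44 both times: its change was higher by 0.70 at D30 than at D1 (adjusted p = 0.0114) and by 0.66 at D180 than at D1 (adjusted p = 0.0116). In the 2 later comparisons its groups overlapped, with changes of 0.05 and 0.01. For the other 14 genes that fell at D1, a different change at D30 or D180 was not shown. The number of genes that differed between D1 and D180 was 2 without vehicle rat 3 of D180 and 4 without vehicle rat 4 of D180, and that between D1 and D30 was 2 without vehicle rat 4 of D30.

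Scan date moved with the groups, most of all at D1. With scan date as a fixed block, all 15 genes that fell at D1 kept their sign, and 1, Dnah9, still passed (-0.96, adjusted p = 0.0273), beside 0.288% of all genes that fell and 0.831% that rose in that model. This comparison rests on the only vehicle array that shares a date with the DQ-12 arrays. Within that date the median of the 55 genes was -0.16, and Cfap44, Cfap100 and Cfap73 were at -0.55, -0.58 and -0.02. Slide as a fixed block likewise rests at D1 on 1 vehicle array, which shares its slide with 4 DQ-12 arrays. Signs kept and calls lost at D1 in either fixed block thus depend on a single vehicle rat. With scan date as a random block, which also uses the arrays scanned apart, 5 genes fell at D1 (Cfap43, Cfap44, Cfap100, Cfap206 and Dnah9), beside 3.41% of all genes, and 0 rose, beside 3.69%. With slide as a fixed block 0 passed at D1 (all 15 kept their sign), beside 0.576% of all genes that fell and 0.873% that rose, and with slide as a random block 10 fell, beside 5.69%, and 0 rose, beside 5.05%.

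At D30, with scan date as a fixed block, 1 of 5 genes still passed, Cfap161 (-0.47, adjusted p = 0.0203), beside 0.359% of all genes that fell and 1.55% that rose. With scan date as a random block 2 fell (Cfap161 and Rsph9), beside 0.459%, and 0 rose, beside 1.93%, and with slide as a random block the same 2 fell, beside 1.17%, and Tekt2 rose, beside 2.87%. With slide as a fixed block, Cfap161 (-0.49, adjusted p = 0.0444) and Tekt2 (0.61, adjusted p = 0.0263) passed, beside 0.535 and 1.77% of all genes. In the date with 2 vehicle and 5 DQ-12 arrays the median of the 55 genes was -0.26, Cfap161 was at -0.56 and Tekt2 at 0.45. In the date with 4 vehicle and 1 DQ-12 array these were -0.06, -0.33 and 0.73. At D180, with scan date as a fixed block, Tekt2 passed (0.93, adjusted p = 6.77e-04), beside 7.37% of all genes that rose and 7.33% that fell, and with slide as a fixed block 0 did, beside 1.2% of all genes that fell and 1.31% that rose. With scan date or slide as a random block Tekt5 fell, beside 10.2 and 8.56%, and Tekt2 rose, beside 8.68 and 7.61%. In the date with 3 arrays of each group Tekt2 was at 0.66 and Tekt5 at -0.63, with a median of the 55 genes of -0.14. All genes that rose or fell at D30 and D180 kept their sign under both blocks.

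**Figure D4:**
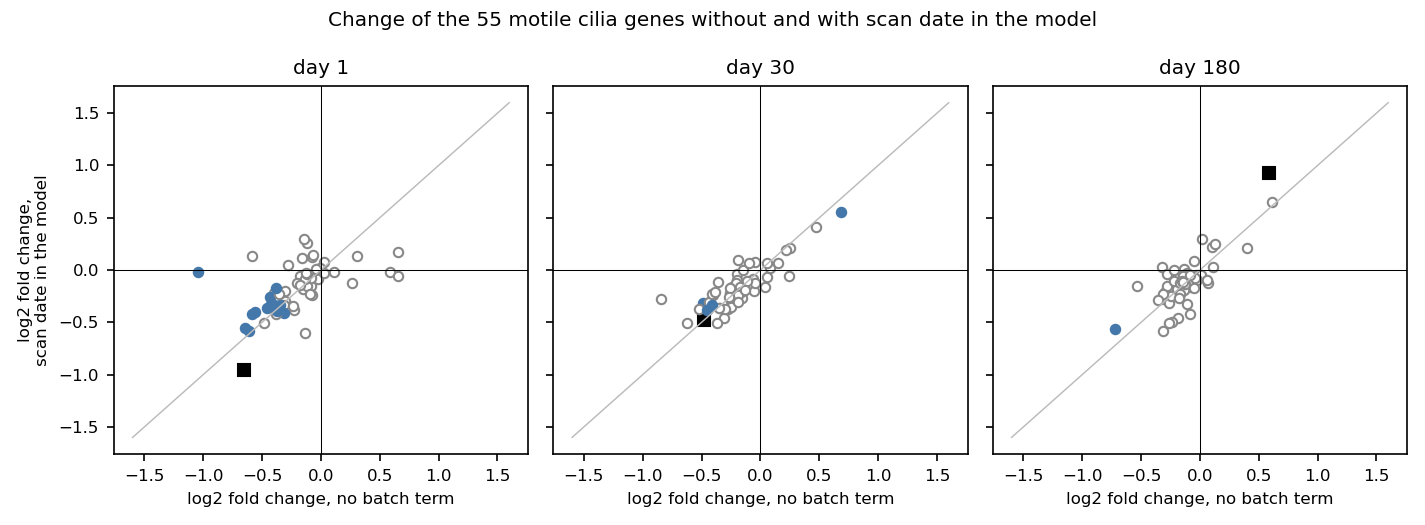
Log2 fold change of each of the 55 genes without a batch term (horizontal axis) and with scan date as a fixed block (vertical axis) at D1, D30 and D180. Blue points passed without the term (limma, adjusted p under 0.05), black squares passed with it, open points did not pass, and the gray line marks equal values. The blue points at D1 lie in the lower left, Cfap73 moves from -1.05 to -0.02, and the squares are Dnah9 at D1, Cfap161 at D30 and Tekt2 at D180.

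Of the 55 genes, 22 had several probes, and the results above use the probe with the highest mean signal. A fit over all probes gave the values of the others. The second probe of Cfap100 fell by 0.62 at D1, beside 0.61 for the first. Of the 3 probes of Cfap69, 2 fell at D1 (-0.35 and -0.55), and the other was at -0.14. The 2 other probes of Cfap44 were at -0.23 and -0.47 at D1 without passing. Of 7 probes of Dnah12, 2 fell at D1 (-0.32 and -0.52). At D180 the Dnah12 probe used was at -0.25 and the next brightest at -0.13. The others ran from -0.31 to 0.43, and no probe of this gene passed at D180. In Dnah7 a dimmer probe fell at D1 (-1.18, adjusted p = 0.0126), whereas the probe used was at -0.35, and in Cfap47 a dimmer probe rose at D1 (1.26, adjusted p = 0.0166), whereas the probe used was at -0.30. The second probe of Foxj1 was at 0.11, -0.17 and 0.40 at D1, D30 and D180, and did not pass. With the median over the probes of a gene in place of the brightest probe, Dnah9, Cfap44 and Cfap206 at D1 were at -0.49, -0.17 and -0.15 and no longer passed (adjusted p = 0.218, 0.565 and 0.734). The second probes of Dnah9 and Cfap206 were well above background on 2 and 1 of the 36 arrays. The Tekt genes and Cfap73, Cfap126 and Cfap161 had a single probe each.

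Further genes of the axoneme were taken from lists of general knowledge. Their counts stand beside 8.62% of all genes that fell and 7.58% that rose at D1, 1.24 and 2.74% at D30, and 9.0 and 7.82% at D180. Of 9 further intermediate and light chain genes tested, 4 fell at D1, among them Dnal4 (-0.57 ± 0.13, limma, adjusted p = 0.00259), Tctex1d4 (-0.55) and Casc1 (-0.54), and 1 fell at D30, Wdr63 (-0.77 ± 0.17, adjusted p = 0.00539). Of 10 genes of the nexin link and its rulers, 1 fell at D1, Iqcg (-0.31), and 0 passed at D30 and D180. Of 10 central pair genes, 4 fell at D1, among them Spag16 (-0.68), Stk36 (-0.49) and Spag6 (-0.46), 1 at D30, Spef1 (-0.43), and 1 at D180, Mycbpap (-0.47). Of 17 docking and assembly genes, 2 fell at D1, Spag1 (-0.56) and Lrrc6 (-0.53), and 2 rose, among them Ruvbl1 (0.26), an ATPase used in many complexes. In that list 1 fell at D30, Zmynd10 (-0.66), and 1 at D180, Spag1 (-0.33). Of 17 further ciliated cell genes, 2 fell at D1, Lrriq1 (-0.65) and Ccdc113 (-0.53), 1 at D30, Tmem212 (-0.43), and 2 at D180, Tppp3 (-0.62 ± 0.12, adjusted p = 1.68e-04) and Pifo (-0.35). With scan date as a fixed block, 0 genes of these 5 lists passed at D1. Of the genes named here at D30, 0 passed in that model: Wdr63 was at -0.40, Zmynd10 at -0.29, Spef1 at -0.33 and Tmem212 at -0.46 (adjusted p = 0.247, 0.323, 0.203 and 0.0799). Genes that had not passed without a block did. At D30, 1 of the 17 ciliated cell genes fell in that model, beside 0.359% of all genes. With slide as a fixed block, 1 of these 17 and 1 of the 10 central pair genes fell at D30, beside 0.535%. At D180, with scan date as a fixed block, Mycbpap (-0.48) and Tppp3 (-0.47) still fell, whereas Pifo (-0.16) and Spag1 (-0.37) did not pass (adjusted p = 0.501 and 0.0527). With slide as a fixed block, which rests on 1 array of each group at D180, Mycbpap was at -0.58 and Tppp3 at -0.36.

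Some of the regulators that act when a cell makes many cilia rose at D1. Of 13 tested besides Foxj1, 4 rose and 1 fell, beside 7.58 and 8.62% of all genes, and 7 had a value below 0, with a median of -0.04. The smallest rise was that of E2f4 (0.32). Foxn4 rose by 2.00 ± 0.29 (limma, adjusted p = 7.75e-06), from a mean of 5.91 ± 0.25 (SD) in vehicle rats to 7.90 ± 0.71 in DQ-12 rats. Plk4, the kinase that starts new centrioles in multiciliated and in dividing cells, rose by 1.99 ± 0.20, from 6.03 ± 0.49 to 8.03 ± 0.28. Ccno, a cyclin needed to multiply centrioles, rose by 1.42 ± 0.16, from 7.85 ± 0.27 to 9.27 ± 0.30. All 3 were DEGs with groups that did not overlap, beside 2.02% of all genes that were DEGs and rose. With scan date as a fixed block Plk4 (1.27, adjusted p = 0.0197) and Ccno (1.26, adjusted p = 0.0213) passed, and Foxn4 (1.82, adjusted p = 0.0787) and E2f4 (0.04, adjusted p = 0.973) did not. Ccdc78 fell at D1 (-0.50) and at D180 (-0.36), and with scan date as a fixed block it passed at D180 (adjusted p = 0.0398) but not at D1 (-0.28, adjusted p = 0.638). At D30, 0 of the 13 passed in limma and 4 had an unadjusted p under 0.05, and at D180 Plk4 (0.99) and Foxn4 (0.98) rose. At D180, with scan date as a fixed block, Plk4 passed (1.03, adjusted p = 2.87e-04) and Foxn4 did not (0.94, adjusted p = 0.0555). With slide as a fixed block, which rests on 1 array of each group at D180, Plk4 was at 0.93 and Foxn4 at -0.16.

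Genes of other cell types in the lobe also moved, and their part in the changes of the cilia genes was not tested. At D1, 4 of 10 club cell genes and 6 of 9 alveolar type 1 genes fell, with medians of -0.35 and -0.34, and 4 of 10 macrophage and monocyte genes rose, beside 8.62% of all genes that fell and 7.58% that rose. With scan date as a fixed block 0 club cell and 0 alveolar type 1 genes fell at D1, and of the macrophage genes 0 rose and 1 fell. Scgb1a1, the secretory protein of club cells, was at -0.35 at D1 without passing (limma, adjusted p = 0.0630), and Epcam, a gene of epithelial cells in general, rose by 0.30 (adjusted p = 0.0110) and was at 0.06 with scan date as a fixed block (adjusted p = 0.949). The mean log2 signal of the club cell genes ranged from 12.90 to 13.32 in vehicle rats and from 12.50 to 12.97 in DQ-12 rats at D1, and that of the 9 pan-epithelial genes from 11.94 to 12.06 and from 12.09 to 12.33. Of these 9, 1 rose at D1 (Epcam), beside 7.58% of all genes, and 0 fell. Their median change was 0.15 at D1, -0.05 at D30 and -0.10 at D180. At D30, 6 of 10 macrophage genes rose, 2 of 9 alveolar type 1 genes fell, and 2 club cell genes rose and 1 fell, beside 2.74% of all genes that rose and 1.24% that fell. The club cell genes that rose were Bpifb1 (1.62) and Hp (1.05). At D180 the same 2 club cell genes rose and 2 fell, beside 7.82 and 9.0% of all genes.

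At D180, 7 of 10 macrophage genes and 4 of 9 neutrophil genes rose, and 8 of 9 alveolar type 1 genes and 7 of 8 endothelial genes fell, with medians of 1.43, 0.88, -0.47 and -0.61, beside 7.82% of all genes that rose and 9.0% that fell. These counts were 7, 4, 6 and 7 with scan date as a fixed block. Slide as a fixed block rests on 1 array of each group at D180, so its counts are not given. The macrophage mean ranged from 8.59 to 9.07 in vehicle rats and from 9.78 to 10.16 in DQ-12 rats at D180, from 8.27 to 8.54 and from 8.90 to 9.49 at D30, and from 8.60 to 8.79 and from 8.96 to 9.19 at D1. Of 9 mucous cell genes 1 rose at D1 and 2 at D180, of 7 basal cell genes 1 rose at D1 and 1 at D180, of 10 alveolar type 2 genes 2, 3 and 4 rose at D1, D30 and D180 and 1 fell at D1 and at D180, of 10 fibroblast and muscle genes 2 rose at D1 and 2 fell at D180, and of 9 lymphocyte genes 0 passed in limma at any time point (1 had an unadjusted p under 0.05 at each). Muc5ac of the mucous list and Ltf of the neutrophil list were not well above background on any array.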

How the data were processed

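Each array was scanned by the authors and extracted with Agilent Feature Extraction 12.0.1.1, and the deposited files hold raw and background-corrected intensity values of every spot. The log2 values deposited by the authors matched the log2 corrected intensity, scaled by the 75th percentile of the array and centered on each probe (median absolute difference 0.00177, r = 0.99997), and served as an alternative. The authors' own fit included a batch correction whose variable is not given in the sources used here.

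From the corrected intensity of 58717 spots, outlier spots (232 to 596 per array) were left out and spots of a probe averaged on the log2 scale. Probes above the 95th percentile of 308 negative controls on at least 6 arrays were kept and quantile normalized, with 1 probe per gene name, the one with the highest mean signal. This left 23940 genes. Group means of all 36 arrays were fitted in limma 3.58.1 (2-sided, Benjamini-Hochberg over all genes per contrast), and exact permutation tests used the 462 splits of 12 arrays. The rats were caged in small groups, and which rats shared a cage or litter is not given in the sources used here, so p-values measure the spread between these animals. The number of arrays limits the precision. The model was tested on simulated data with known changes and no slide or scan date effect, so that test cannot speak to batch. Fits ran in R 4.3.3, with statmod 1.5.0 for random blocks, and promoter searches and plots in Python 3.11.15.

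Genes described in full were Foxj1, the gene of each role with the highest mean signal, and, per time point, up to 8 genes with the largest absolute change among those that passed. Up to 3 genes that passed were named per pathway list and time point. Other names were chosen after their values were seen. The genes and lists were chosen with earlier results of these data known. Alternatives changed the intensity column, background correction, normalization, filter, probe summary, model, threshold and batch, and left out each rat in turn. Promoters came from RefSeq (GRCr8). Protein sequences and array probe positions were not used here.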

Additional observations from a re-analysis of the deposited data

Results flagged for a closer look

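In 6 of 132 groups checked (the genes described in full and the mean of the 55 genes, 6 groups each), a single rat stood apart from the other 5 by Dixon's test, where chance alone marks about 1 in 20. Dnah10 was lowest in vehicle rat 5 at D180 (14.39, the next at 15.61, gap over range 0.641). Cfap100 was lowest in DQ-12 rat 5 at D180 (12.03, the next at 12.36, 0.677). Dnai2 was lowest in vehicle rat 3 at D1 (7.86, the next at 8.19, 0.633). Cfap73 was highest in DQ-12 rat 5 at D30 (6.17, the next at 5.79, 0.636). Tekt5 was lowest in vehicle rat 1 at D180 (5.22, the next at 6.02, 0.701), and so was the mean of the 55 genes (8.40, the next at 8.56, 0.660). Without that rat, 5 of the 55 genes passed at D180 in place of 2.

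The change of Cfap44 differed between time points by a test of the difference, by 0.70 between D1 and D30 (0.702 ± 0.156, SE) and by 0.66 between D1 and D180 (0.656 ± 0.156). The vehicle and DQ-12 arrays of D1 were scanned on different dates but for 1 vehicle array, and with scan date or slide as a fixed block neither difference passed. The part of scan date in it was not tested.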

How the results depend on the processing

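Of 63 values of a described gene at a time point, 18 passed, and none of these 18 changed sign in any alternative run, whereas 19 of the others did in at least 1. Calls were less stable. At D1, 15 genes passed, 11 to 15 leaving out each rat, 0 with slide fixed, 1 with scan date fixed and 5 with scan date random as a block. At D30, 5 passed, 3 to 12 leaving out each rat (12 without DQ-12 rat 5, 10 without vehicle rat 3), 1 with each time point alone, 13 with array weights, 2 and 1 with slide and scan date fixed, and 3 and 2 with them random. At D180, 2 passed, 1 to 5 leaving out each rat (5 without vehicle rat 1, 4 without DQ-12 rat 5, 1 without DQ-12 rat 2), 0 with each time point alone, 0 with slide fixed and 1 with scan date fixed. The DEG at D1 was lost (0) with the median intensity, normexp, each time point alone, slide or scan date fixed or random, and a test against 2-fold (treat), and leaving out a rat gave 0 to 1. The median over probes gave 2 DEGs. A fold of 1.5 gave 4, 1 and 2 DEGs at D1, D30 and D180. At D30, array weights gave 1 DEG and leaving out a rat 0 to 1. The median change of the genes at D1 was -0.30 with 75th percentile scaling and -0.30 in the deposited values, where all genes had medians of -0.09 and -0.09, and -0.24 to -0.15 leaving out each rat. It was -0.24 to -0.18 at D30 and -0.18 to -0.12 at D180 leaving out each rat, -0.0629 within a scan date of D30 and -0.0081 within a scan date of D180. Differences between D1 and D30 were 0 with the median over probes, slide or scan date fixed, and scan date random, 4 with array weights, and 1 to 2 leaving out each rat. Those between D1 and D180 were 2 with the stricter filter, 2 with the replicate block, 0 with the median over probes and with slide or scan date fixed, and 1 to 4 leaving out each rat. The cause was not tested. Replicate numbers did not pair the rats (r from -0.13 to 0.22), and with the replicate block 15, 6 and 3 genes passed at D1, D30 and D180. The number of arrays and, for dim genes, signal near background limit these results.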
